A study of Sus scrofa with 6 samples.

Results

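The genes described here make and sense prostaglandins, in ovarian follicles taken from 6 sows after hCG. The rule named 7 genes (PTGS1, PTGS2, PTGES, PTGES3, PTGIS, PTGFR and HPGD) and took every probe set, the group of short probes that reads 1 transcript on the array, that carries exactly 1 of these symbols. It found 8 probe sets for 5 of the 7 genes, out of 6765 genes with a probe set of exactly 1 symbol. PTGS1, PTGES3 and PTGFR had 2 each, called here the brighter and the dimmer by their mean signal, and the plots give the identifiers. No probe set with the single symbol HPGD or PTGIS was in the probe table used, so the enzyme that inactivates prostaglandins and the prostacyclin synthase were not analysed here.

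Each array was hybridized with follicle RNA of a single sow, 3 Chinese Taihu and 3 Large White. Chinese Erhualian, 1 of the Taihu strains, is the name of the Chinese sows in the labels. Every sow was a cycling multiparous animal given 1000 IU PMSG, which acts like FSH, and 80 h later 500 IU hCG, which takes the place of the LH surge. All were killed 30 to 38 h after hCG, and follicles over 5 mm were dissected whole, so a sample holds granulosa, theca, blood vessels and any attached tissue. The interval of the single sow is not given in the sources used here, and the breeds were kept on separate farms, so breed and farm cannot be told apart. Values are the authors' normalized signal intensities on a linear scale. Of 23935 probe sets other than controls, 19196 exceeded a signal of 50 on 3 or more arrays and were compared by limma on the log2 scale. Differences are given as log2 of Chinese Taihu over Large White, and adjusted p-values follow Benjamini and Hochberg over all 19196.

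Prostaglandins are made when a phospholipase frees arachidonic acid from the membrane and the cyclooxygenases PTGS1 and PTGS2 turn it into prostaglandin H2. Terminal synthases then convert this to prostaglandin E2, F2α, D2, prostacyclin or thromboxane, each of which acts on receptors of its own. In the ovulating follicle the LH surge induces PTGS2 in granulosa cells, and inhibitors of cyclooxygenase block follicle rupture. Prostaglandin F2α acting on its receptor PTGFR is known for ending the life of the corpus luteum.

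Single sows stood apart on these arrays. Chinese Taihu sow 1 had its log2 signals correlated with the other arrays at a Pearson r of 0.834 to 0.887 across probe sets (not independent replicates), against 0.907 to 0.967 among the other 5. In this sow all 10 tested markers of surface epithelium and oviduct were at their highest of the 6 arrays. Their summed signal was 47297 there, against 2053 and 2683 in the other Chinese Taihu sows and 1920, 2240 and 8978 in Large White sows 1 to 3. All 8 theca and luteal steroid markers were at their lowest in Chinese Taihu sow 1, and so were 6 of 11 granulosa cell markers, whose summed signal was 4275 against 25262 and 31623 in the other Chinese Taihu sows and 23052 to 28184 in Large White sows. By their brightest probe sets, no tested marker of the cell type lists was at 0 in any sow, the lowest signal being 18.5. A dimmer tested probe set of NR5A2 had 12.5 in Chinese Taihu sow 1. Signals below 50 such as these are not shown to be above background. INHA, the inhibin subunit made by granulosa cells, had a signal of 446 in Chinese Taihu sow 1, against 6510 to 10684 in the other sows. The granulosa list did not move as one there, since 2 of the 11 were at their highest. These were INHBA, another subunit, at 899 against 233 to 387 in the other sows, and CYP19A1, nearly level at 119 against 88.4 to 117. Chinese Taihu sow 2 and Large White sow 1 held the 2 highest signals for 6 of 8 theca and luteal steroid markers (not for INSL3 and LHCGR) and for all 6 tested genes of cholesterol synthesis, though for SC5D Large White sow 1 (497) was near Chinese Taihu sow 1 (482). In turn 12 of 15 leukocyte markers were highest in Large White sow 2. The actin 3 prime to 5 prime signal ratio, a measure of RNA integrity, was 1.96 to 2.66 in Chinese Taihu sows and 1.497 to 2.13 in Large White sows. Of 3 red blood cell markers 2 were higher in Chinese Taihu sows by limma before adjustment (threshold 0.05) and 0 after it, with summed signals of 719 to 919 in Chinese Taihu sows and 478 to 668 in Large White sows, and their part in the results was not tested. Fewer cells of a type and less RNA per cell cannot be told apart in such samples.

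None of the 8 probe sets passed the test for a breed difference over all 6 sows. By limma 0 of 8 reached an adjusted p below 0.05, where 0.0208% of all tested probe sets did, and 0 of 8 had an unadjusted p of at most 0.05, where 3.86% did. The methods' t-test also gave 0 by either criterion. The arrays of the breeds overlapped in all 8, while 9.10% of tested probe sets did not overlap. Of the 8 differences 4 were above and 4 below 0, with a median of -0.08, against a median of 0.00 over all tested probe sets. The intervals were wide for PTGS2, PTGFR and PTGES, where sows of 1 breed differed most from each other.

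**Figure D1:**
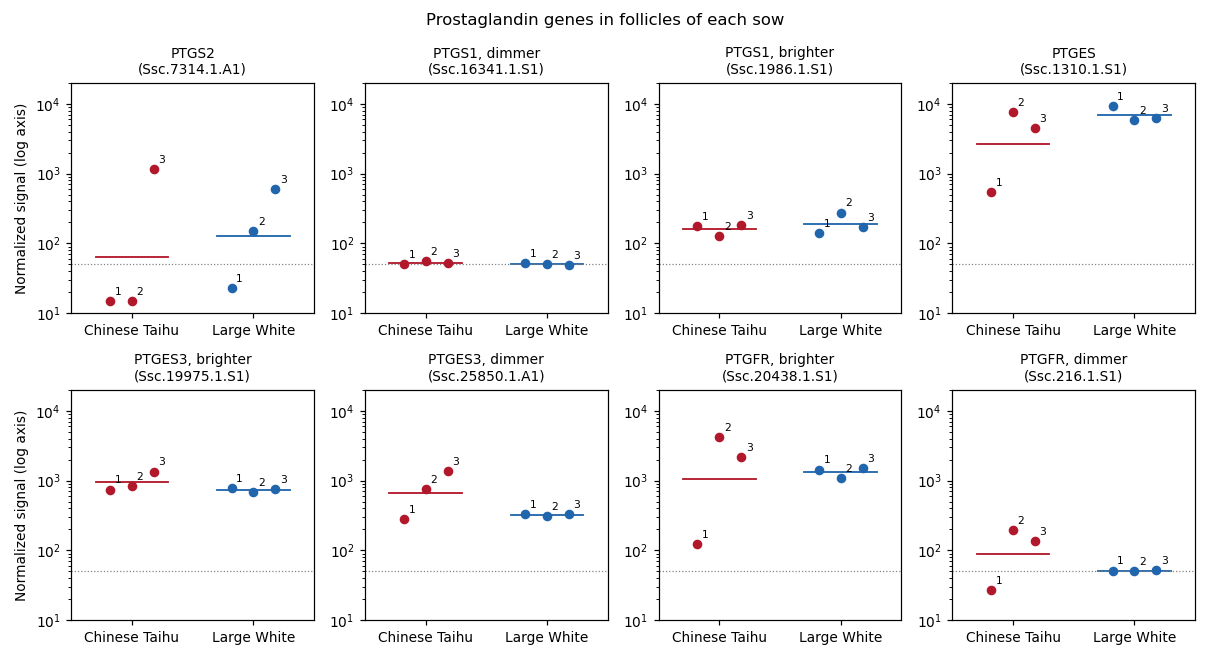
Normalized signal of the 8 probe sets of PTGS2, PTGS1, PTGES, PTGES3 and PTGFR, with a log axis. Points are single sows, numbered 1 to 3 within each breed (Chinese Taihu left, Large White right), horizontal lines are geometric means by breed, and the dotted line a signal of 50; PTGS2 runs between 14.8 and 1166 and Chinese Taihu sow 1 is lowest for PTGES and PTGFR.

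PTGS2, the cyclooxygenase induced by LH, varied widely among the sows of both breeds. Its probe set had signals of 14.81, 14.95 and 1166 in Chinese Taihu sows 1 to 3, and of 22.7, 150 and 603 in Large White sows 1 to 3. Thus 1 of 3 Chinese Taihu and 2 of 3 Large White sows lay above 50, and each breed held both low and high sows. Signals below 50 are not shown to be above background, so the highest sow is given as at least 23.3 times the lowest, with such signals raised to 50. The log2 range was then at least 4.54, larger than that of 99.2% of the tested probe sets treated alike (median range 0.79). The mean was 398 ± 664 in Chinese Taihu sows and 259 ± 305 in Large White sows (SD, n = 3 each). The ratio of these means was 1.54, whereas the log2 difference was -0.998 (95% interval -5.79 to 3.80, limma adjusted p = 0.993), because 1 high sow sets the mean and the 2 low sows the mean of logs. The log2 difference shrank to -0.61 when 16 was added to each signal and to -0.21 with signals below 50 raised to 50. Its sign turned when Chinese Taihu sow 1 (0.05), Chinese Taihu sow 2 (0.05) or Large White sow 3 (0.12) was left out. With 3 sows per breed, these data do not fix a direction for PTGS2.

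The sows low in PTGS2 were not alike in other respects. Chinese Taihu sow 2 and Large White sow 1 had the highest signals of STAR, which brings cholesterol into the mitochondrion for steroid synthesis, at 12624 and 12051. Chinese Taihu sow 1 had the lowest STAR signal, 27.0. The 3 sows with PTGS2 above 50 lay between these in STAR, at 982 in Chinese Taihu sow 3 and at 1304 and 1516 in Large White sows 2 and 3. TNFAIP6, a hyaluronan-binding protein of the expanding cumulus, had a signal of 744 in Chinese Taihu sow 2, against 36.4 and 52.0 in the other Chinese Taihu sows and 25.4 to 66.0 in Large White sows. The sow highest in TNFAIP6 thus had a PTGS2 signal of 14.95. AREG, an EGF-like factor that carries the LH signal to the cumulus, was also highest in that sow, at 1312 against 134 to 312 in the others. AREG was chosen after its values were seen.

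PTGDS, the lipocalin-type synthase of prostaglandin D2, was high in the same 3 sows as PTGS2. Its signal was 1823, 1676 and 5264 in Chinese Taihu sows 1 to 3 and 1118, 4233 and 4979 in Large White sows 1 to 3. The 3 sows with PTGS2 above 50 had PTGDS at 4233 to 5264, and the other 3 sows at 1118 to 1823. The coincidence was noticed in these values and was not tested. Between the breeds PTGDS had a log2 difference of -0.18 (95% interval -1.867 to 1.4995, limma adjusted p = 0.998).

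**Figure D2:**
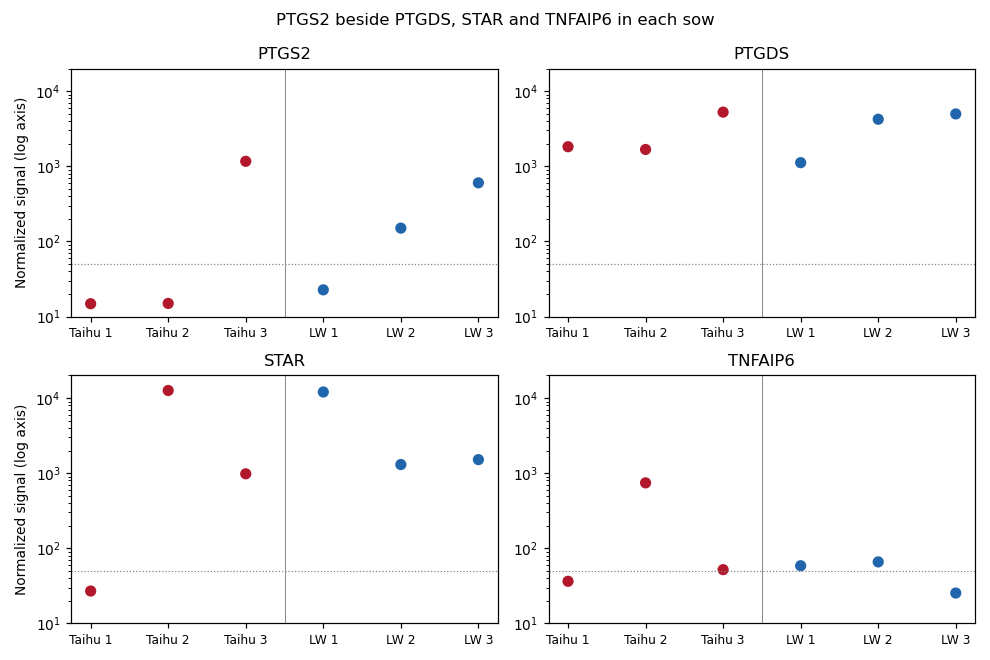
Normalized signal of PTGS2, PTGDS, STAR and TNFAIP6 in each sow, on a log axis, with Chinese Taihu sows 1 to 3 on the left and Large White (LW) sows 1 to 3 on the right; the dotted line marks a signal of 50. PTGS2 and PTGDS are both highest in Chinese Taihu sow 3 and Large White sows 2 and 3, while STAR is highest in Chinese Taihu sow 2 and Large White sow 1.

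PTGS1, the cyclooxygenase that most tissues make at a steady level, varied less among the sows than PTGS2. The brighter of its 2 probe sets had signals of 176, 130 and 184 in Chinese Taihu sows and of 143, 277 and 170 in Large White sows. Only Large White sow 2 stood out, and this was the sow with high leukocyte markers (summed signal 25650, against 5246 to 8830 in Chinese Taihu sows and 4916 and 6259 in the other Large White sows). TYROBP, an adaptor of myeloid cells, reached 5138 there. The part of leukocytes in the PTGS1 signal was not tested. The log2 difference was -0.23 (95% interval -0.93 to 0.48, limma adjusted p = 0.993), and it was 0.05 without Large White sow 2. The dimmer PTGS1 probe set had 51.2, 56.3 and 52.2 in Chinese Taihu sows and 51.7, 51.3 and 49.0 in Large White sows, values at the filter level. It did not show the peak in Large White sow 2. Its log2 range of 0.20 was larger than that of 1.14% of the tested probe sets. At such signals neither the missing peak nor the narrow range can tell how steady PTGS1 was.

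PTGES, the inducible synthase that turns prostaglandin H2 into prostaglandin E2, had a high signal in all sows but 1. It was 547, 7697 and 4458 in Chinese Taihu sows and 9391, 5807 and 6219 in Large White sows. The value of Chinese Taihu sow 1 was 0.0880 times the median of the other 5 sows, which lay between 4458 and 9391. The mean was 4234 ± 3580 in Chinese Taihu sows and 7139 ± 1961 in Large White sows (SD, n = 3 each), a log2 difference of -1.39 (95% interval -3.67 to 0.88, limma adjusted p = 0.993). Without Chinese Taihu sow 1 the difference was -0.25 (95% interval -1.04 to 0.53), and without Chinese Taihu sow 2 it was -2.16. Its signal did not follow PTGS2: Large White sow 1, with the highest PTGES signal, had 22.7 for PTGS2, and Chinese Taihu sow 3, with the highest PTGS2, had the second lowest PTGES.

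PTGES3 encodes p23, a co-chaperone of HSP90 that also has prostaglandin E synthase activity. It had 2 probe sets. The brighter had signals of 744, 830 and 1344 in Chinese Taihu sows and of 773, 679 and 746 in Large White sows. The dimmer had 283, 763 and 1351 in Chinese Taihu sows and 332, 310 and 328 in Large White sows. On both, Chinese Taihu sow 3 was highest and Chinese Taihu sow 2 second, and the Large White sows lay close together. The log2 difference was 0.36 (95% interval -0.283 to 1.005) on the brighter and 1.03 (95% interval -0.28 to 2.35) on the dimmer, each with a limma adjusted p of 0.993. Chinese Taihu sow 1 lay within the Large White range on the brighter and below it on the dimmer. Without Chinese Taihu sow 3 the log2 differences were 0.10 and 0.52.

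PTGFR, the receptor of prostaglandin F2α, had its highest signals in Chinese Taihu sows 2 and 3. The brighter probe set had 125, 4249 and 2186 in Chinese Taihu sows and 1439, 1096 and 1518 in Large White sows. The dimmer had 27.4, 194 and 136 in Chinese Taihu sows, and in Large White sows 51.41, 50.02 and 52.18, values at the filter level. On both probe sets Chinese Taihu sow 1 was the lowest of the 6 sows, the 3 Large White sows came next, and Chinese Taihu sows 3 and 2 were above them. The mean of the brighter probe set was 2186 ± 2062 in Chinese Taihu sows and 1351 ± 225 in Large White sows (SD, n = 3 each). Its ratio of means was 1.62, but its log2 difference was -0.35 (95% interval -3.37 to 2.67, limma adjusted p = 0.998), the low value of Chinese Taihu sow 1 weighing more on the log scale. For the dimmer probe set the log2 difference was 0.81 (95% interval -0.88 to 2.49, limma adjusted p = 0.993). Without Chinese Taihu sow 2, the highest sow, the log2 differences were -1.36 on the brighter and 0.25 on the dimmer.

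Without Chinese Taihu sow 1, the sow rich in epithelial and oviduct transcripts, PTGFR and, on its dimmer probe set, PTGES3 had higher signals in Chinese Taihu sows at an unadjusted p only. PTGFR had a log2 difference of 1.19 (95% interval 0.34 to 2.03, limma adjusted p = 0.9996) on the brighter and 1.66 (95% interval 1.16 to 2.17, limma adjusted p = 0.285) on the dimmer probe set. PTGES3 had 1.65 (95% interval 0.92 to 2.38, limma adjusted p = 0.908) on the dimmer and 0.53 (95% interval -0.16 to 1.21, limma adjusted p = 0.9996) on the brighter. So 3 of 8 probe sets were higher at a limma p of at most 0.05, against 1.47% of all tested probe sets, and 5 of 8 did not overlap on the higher side, against 7.38% of all. Both shares count the higher side only, where these members lay, and so are smaller than shares over both directions. In either direction 703 of the 19196 tested probe sets reached that p. These 5 were both PTGFR probe sets, both PTGES3 probe sets and the dimmer PTGS1 probe set, where the margin was 52.2 in Chinese Taihu against 51.7 in Large White. After adjustment over all tested probe sets 0 of 8 passed. In the same comparison 9 of 11 granulosa cell markers and 6 of 8 theca and luteal steroid markers had differences above 0, with list medians of 0.12 and 0.28 and 0 of them at a limma p of at most 0.05. Of 10 surface epithelium and oviduct markers 6 had differences below 0 (list median -0.87), and 2 had a limma p of at most 0.05, the keratins KRT8 (-1.57) and KRT19 (-1.37), none after adjustment. Large White sow 3 stayed in, with a summed signal of these markers of 8978. The sum was 1920 and 2240 in Large White sows 1 and 2, and 2053 and 2683 in Chinese Taihu sows 2 and 3. The part of granulosa, theca and epithelial cells in the PTGFR and PTGES3 values was not tested. This comparison rests on 2 Chinese Taihu sows, and the probe sets of 1 gene are not independent of each other.

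**Figure D3:**
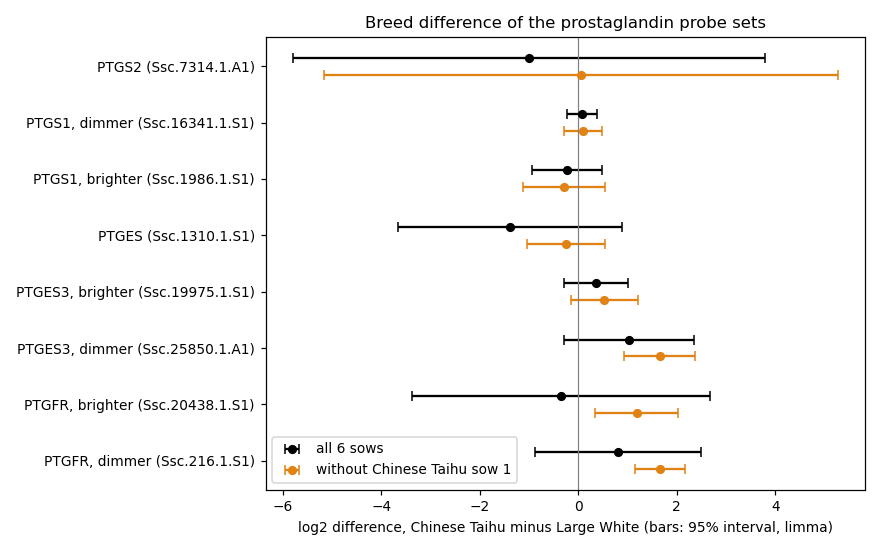
Log2 difference of the signal, Chinese Taihu minus Large White, for each probe set. Points are limma estimates and bars their 95% intervals, black for all 6 sows and orange without Chinese Taihu sow 1. All black bars cross 0, and the orange bars of both PTGFR probe sets and of the dimmer PTGES3 probe set lie above 0.

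PTGES and the brighter PTGFR probe set were thus lowest in the sow whose theca and luteal steroid markers were all lowest, as were 6 of 11 granulosa cell markers. On the log2 scale with the median of the 6 sows set to 0, that sow had -3.46 for PTGES and -3.57 for the brighter PTGFR probe set, beside list medians of -3.54 for theca and luteal steroid markers, -1.11 for granulosa cell markers and 4.28 for surface epithelium and oviduct markers. The granulosa median stands for a mixed list. In that sow INHA had 446 against 6510 to 10684 in the others, and SERPINE2 585 against 6808 to 9860. FOXL2 had 98.6 against 94.9 to 116, and INHBA was highest. These values do not set theca apart from granulosa markers for PTGES and PTGFR. PTGS1 (0.03 on the brighter probe set) and PTGES3 (-0.03 on the brighter) lay at their medians there. The split was less clear on other probe sets. The dimmer PTGES3 was also lowest in that sow (-0.22), and the dimmer PTGFR had -0.92. PTGS2 was lowest there too (-1.98, beside -1.97 in Chinese Taihu sow 2), at signals not shown to be above background. The part of the cell makeup of this sample in these values was not tested.

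**Figure D4:**
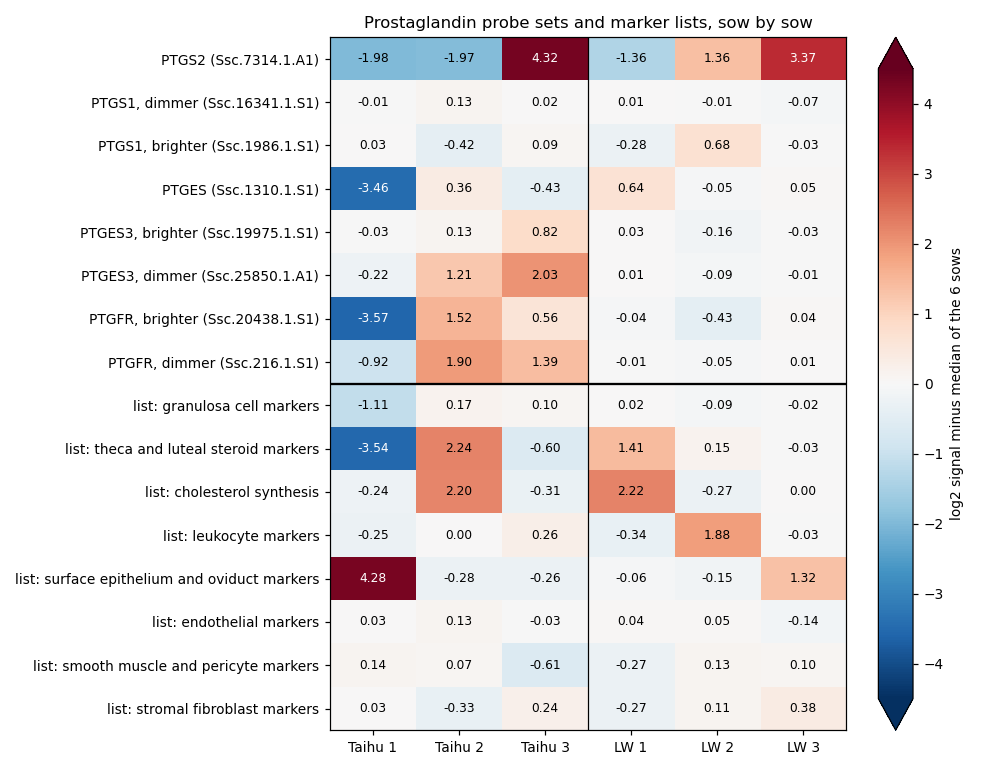
Log2 signal minus the median of the 6 sows for the 8 probe sets (above the line) and, below it, the median of the same quantity over the genes of 8 lists. Columns are Chinese Taihu sows 1 to 3 and Large White (LW) sows 1 to 3. In Chinese Taihu sow 1 PTGES (-3.46) and the brighter PTGFR probe set (-3.57) are low together with theca and luteal steroid markers (-3.54). The median of the mixed granulosa list is -1.11 there, while surface epithelium and oviduct markers are high (4.28).

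No pair of members was related beyond the test's threshold. Of the 10 pairs of members, each taken by its brightest probe set over the 6 sows, none had an adjusted p below 0.05 in the exact permutation test (2-sided; smallest adjusted p 0.736 for Pearson's r and 0.583 for Spearman's rho). PTGES and PTGFR had r = 0.90 (exact p = 0.0736) and rho = 0.43 (exact p = 0.419). Without Chinese Taihu sow 1 and Large White sow 1, the 2 farthest from the PTGES median, r was 0.43 over 4 sows of narrower range. With single sows left out, r was 0.09 without Chinese Taihu sow 1 and 0.90 to 0.94 without any other, so the relation rested on Chinese Taihu sow 1. PTGFR and PTGES3 had r = 0.35 (exact p = 0.344) and rho = 0.83 (exact p = 0.0583), and r was 0.93 without Chinese Taihu sows 1 and 2 but 0.37 to 0.43 with single sows left out. PTGS2 had r = 0.25 with PTGES (exact p = 0.810) and rho = -0.03 (exact p = 1), and its r was -0.88 without Chinese Taihu sow 1. Each breed has 3 sows, too few for a value within a breed.

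**Figure D5:**
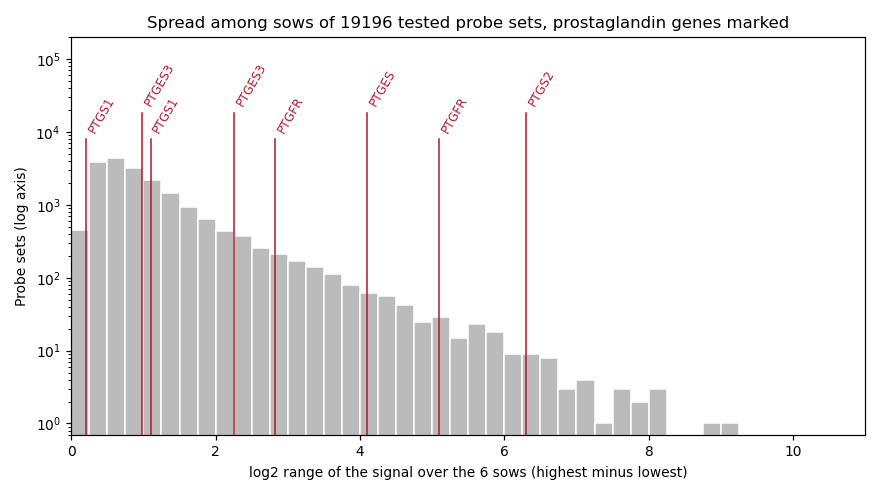
Histogram of the log2 range of the signal over the 6 sows (highest minus lowest) for the 19196 tested probe sets, with a log axis for their number. Red lines mark the 8 probe sets of the prostaglandin genes. PTGS2 (6.30 as deposited, at least 4.54 with signals below 50 raised to 50), PTGFR (5.09) and PTGES (4.10) lie in the upper tail. At the lower end lies 1 PTGS1 probe set (0.20), whose signals are at the filter level of 50.

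For members with a log2 range of at least 1, the genes with the most alike pattern over the 6 sows were looked up, as a description. PTGS2 was followed most closely by NCOA1, a coactivator of steroid receptors (r = 0.994), CA12, a carbonic anhydrase (r = 0.989), and ANGEL2 (r = 0.986). CA12 had signals of 488, 557 and 2231 in Chinese Taihu sows and of 589, 1138 and 1433 in Large White sows. PTGES was followed by BMP1, a procollagen protease (r = 0.995), ABHD16A, a lipid hydrolase (r = 0.993), and TIMP1, an inhibitor of metalloproteases (r = 0.993), all lowest in Chinese Taihu sow 1. PTGFR was followed by PAPSS2, which makes the sulfate donor PAPS (r = 0.996), UCP3, a mitochondrial carrier (r = 0.991), and SLA-DMA, a chain of an MHC class II peptide-loading protein (r = 0.986). PAPSS2 had 141, 6582 and 3070 in Chinese Taihu sows and 1935, 1501 and 2767 in Large White sows. PTGS1 was followed by KMO, an enzyme of tryptophan breakdown (r = 0.991), SPIRE1, an actin nucleator (r = 0.988), and GGA2, a sorting adaptor (r = 0.987). KMO reached 1255 in Large White sow 2, against 78.4 to 285 in the others. A high r did not mean a like range. NCOA1 ran only from 128 to 205, ANGEL2 from 189 to 276, ABHD16A from 308 to 419 and UCP3 from 58.5 to 127. The r values of PTGS2 also used its signals below 50, which are not shown to be above background. Each search ran over 9092 or 9093 probe sets and 6 sows that share a scale and, in Chinese Taihu sow 1, a low granulosa and theca signal.

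Genes of the rest of the prostanoid pathway did not pass the adjusted test either. Of 35 further genes listed, 10 were tested by their brightest probe set, and 0 of them had a limma p of at most 0.05 in either direction, as 3.86% of all tested probe sets had. Their median log2 difference was -0.10, with 4 above and 6 below 0, beside 0.00 over all tested probe sets. Among the phospholipase genes, the secreted PLA2G1B had a log2 difference of -0.48 (95% interval -1.23 to 0.27), PLA2G12A of -0.12 (95% interval -0.63 to 0.40) and PLAA, a phospholipase-activating protein, of 0.04 (95% interval -0.64 to 0.72). The 3 PLAA probe sets differed from each other. One of the dimmer PLAA probe sets, singled out after its values were seen, had 94.4, 135 and 137 in Chinese Taihu sows and 162, 181 and 171 in Large White sows, with no overlap (log2 difference -0.51, 95% interval -0.98 to -0.04, limma adjusted p = 0.993), and the remaining one had 0.29 (95% interval -0.25 to 0.83). Of all 14 tested probe sets in these lists, compared over all sows, only the PLAA probe set without overlap reached an unadjusted limma p of 0.05 or showed no overlap. After adjustment 0 of 14 passed. Over all tested probe sets 3.86% reached that p and 9.10% did not overlap, so 1 such probe set among 14 is not read as a result. TBXAS1, the thromboxane synthase, had 30.0, 69.4 and 90.7 in Chinese Taihu sows and 152, 55.5 and 79.4 in Large White sows (log2 difference -0.61, 95% interval -1.87 to 0.65). CBR1, a carbonyl reductase that can turn prostaglandin E2 into F2α, had a log2 difference of -0.09 (95% interval -0.46 to 0.28).

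PTGER3, a receptor of prostaglandin E2, had signals of 105, 146 and 203 in Chinese Taihu sows and of 135, 121 and 96.4 in Large White sows (log2 difference 0.33, 95% interval -0.343 to 0.997). Chinese Taihu sow 3 was highest, as it was for PTGS2 and PTGES3, and the breeds overlapped. Without Chinese Taihu sow 1 they did not (log2 difference 0.57, 95% interval -0.03 to 1.16, limma adjusted p = 0.9996). In that run 4 of the 14 probe sets of these lists did not overlap. PTGER3 and a PLAA probe set lay on the higher side, CBR1 and another PLAA probe set on the lower. The share of all probe sets over both sides is not given for that run, so this count is not read as a result. PTGFRN, a membrane protein that binds PTGFR and lowers its ligand binding, had 723, 1510 and 1045 in Chinese Taihu sows and 1673, 866 and 1005 in Large White sows (log2 difference -0.12, 95% interval -1.01 to 0.77). It was lowest in Chinese Taihu sow 1, as PTGFR was, but highest in Large White sow 1. PTGR1 and PTGR2, reductases that break prostaglandins down, had log2 differences of 0.01 (95% interval -0.67 to 0.69) and 0.22 (95% interval -0.40 to 0.85). The adjusted p of each of these 10 genes lay between 0.993 and 0.9997 (limma).

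Among 14 tested genes of the follicle's response to LH, 0 had a limma p of at most 0.05, and 0 of their 24 tested probe sets had. A dimmer EGFR probe set, chosen after its values were seen, did not overlap (286 to 351 in Chinese Taihu sows, 353 to 571 in Large White sows). It was 1 of 24, where 9.10% of all tested probe sets did not overlap, and is not read as a result. JUN, an immediate early transcription factor, had a log2 difference of -0.54 (95% interval -1.70 to 0.62), TNFAIP6 of 1.28 (95% interval -1.49 to 4.05) and VCAN, the proteoglycan versican, of -1.10 (95% interval -3.50 to 1.30), each with a limma adjusted p of 0.993. VCAN lay at 172 in Chinese Taihu sow 1, where PTGES and PTGFR were lowest, and at 1919 to 2374 in the other 5 sows. VCAN, unlike PTGS2, was thus nearly level over those 5 sows.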

How the data were processed

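Follicle RNA of 6 sows was measured on 1 Affymetrix porcine array per sow. The deposited values are signal intensities, 1 for each probe set on each array, which the authors made with MAS5 (version 2.3.1 in the submitters' processing notes), scaled to a common target and normalized with the invariant set of dChip; a difference in total RNA cannot be seen in it, and the number of arrays limits the precision. Breeds came from the titles. After removal of 188 control probe sets, signals were floored at 1 and transformed to log2, and the filter of the methods (above 50 on at least 3 arrays) was kept. limma 3.58.1 (R 4.3.3) compared the breeds 2-sided with a trended prior variance over 19196 probe sets, and was tested on simulated data with known answers. It stands in for the methods' t-test, which was run as an alternative. Correlations used exact permutation of the sows (Python 3.11.15, numpy 2.4.6, pandas 2.3.3, scipy 1.17.1). Gene symbols came from the array's probe table; all 8 probe sets matched a RefSeq gene by ID, with 0 symbols changed. The brightest probe set stood for a gene in lists. Named are all members, the 3 genes of smallest limma p in each pathway list, any other with p of at most 0.05 (0), markers that stand out with a member, and the 3 most alike genes. Members and lists were chosen with earlier results of these data known. Alternatives were other normalizations, filters, an offset, a constant prior variance, a replicate block and each array left out; a floor at the filter level, every probe set of a pathway gene, INHA subtracted and the 2 arrays of highest STAR left out were added after seeing the data. Figures used matplotlib 3.10.9.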

Additional observations from a re-analysis of the deposited data

How the results depend on the processing

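By limma and the methods' t-test the count of members with an adjusted p below 0.05 was 0 in each alternative run, and that of other pathway genes with p of at most 0.05 was 0 too, with their brightest probe sets. Every probe set was compared only over all sows and without Chinese Taihu sow 1, with 1 PLAA probe set reaching that p in each. These were different PLAA probe sets of opposite sign, with log2 differences of -0.51 and 0.49. Leaving out each array gave 0 to 3 members at unadjusted p (3 without Chinese Taihu sow 1) and 0 to 5 without overlap (5 without Chinese Taihu sow 1, 1 each without Chinese Taihu sow 2 or 3). Over all 19196 tested probe sets, unadjusted calls in these runs went from 373 to 1225, with 703 without Chinese Taihu sow 1. In that run 7.38% of all did not overlap on the higher side, where the 5 members lay. For the other runs no such share is given, so the single members without overlap there are not read as a result. Across the arrays left out, the log2 difference ran from -3.09 to 0.12 for PTGS2, from -1.36 to 1.19 for the brighter PTGFR probe set and from -0.43 to 0.0498 for the brighter PTGS1 probe set, with sign changes. The other 5 probe sets kept their sign but moved, PTGES between -2.16 and -0.25, the dimmer PTGFR between 0.25 and 1.66, PTGES3 between 0.10 and 0.53 (brighter) and between 0.52 and 1.65 (dimmer), and the dimmer PTGS1 between 0.03 and 0.10. Subtracting INHA, whose own difference was -1.43, shifts each difference up by the same amount, so the turned signs of PTGES (0.0408), PTGS2 (0.44) and the brighter PTGFR (1.08) and PTGS1 (1.21) probe sets are set by that step and say nothing about the members. Leaving out the 2 sows of highest STAR, also chosen after seeing the data, turned none. Quantile normalization, median scaling, the offset, the filters, the constant prior and the t-test turned no sign, but the offset took PTGS2 to -0.61. Raising signals below 50 to 50, chosen after seeing the data, turned none and took PTGS2 to -0.21. A filter of 100 kept 6 of the 8. Without the 2 farthest sows the correlation turned for PTGES with PTGS2 (-0.86), PTGES with PTGES3 (-0.68), PTGS2 with PTGES3 (-0.84) and PTGS1 with PTGES3 (0.51), over 4 sows of narrower range. The replicate numbers were not taken to pair the sows (correlations of same-numbered deviations -0.17, -0.14 and 0.27). Sows of different numbers were not correlated beside them, so these values cannot decide whether a pairing exists. A replicate block left 0 members called and took the calls over all probe sets to 0, against 4 without it. The planned balances of PTGS2 and PTGES over HPGD were not run, as HPGD had no probe set here.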

Other observations

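The lipoxygenase branch, which turns arachidonic acid into leukotrienes and related lipids, was represented by 2 of 6 listed genes. ALOX5AP, the protein that presents arachidonic acid to 5-lipoxygenase, had signals of 646, 402 and 529 in Chinese Taihu sows and of 438, 693 and 674 in Large White sows (log2 difference -0.19, 95% interval -0.87 to 0.49, limma adjusted p = 0.993). ALOX15, a lipoxygenase of epithelial and myeloid cells, had 108, 14.001 and 18.2 in Chinese Taihu sows and 12.6, 27.2 and 30.3 in Large White sows, and was not tested because 1 array alone exceeded 50. That array was Chinese Taihu sow 1, in which the surface epithelium and oviduct markers were highest.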
